A study of Arabidopsis thaliana with 12 samples.

Results

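Branched-chain amino acid breakdown was followed through 10 genes among the 19522 in the expression table of Arabidopsis thaliana seedlings. They were chosen by locus code, for their place in the pathway and with earlier results of these data known. They are not all of its genes, the remaining ones are counted further below, and all 10 were in the table. They encode the branched-chain aminotransferases BCAT-1 (AT1G10060) and BCAT-2 (AT1G10070), and the subunits E1 alpha (AT1G21400), E1 beta (DIN4, AT3G13450) and E2 (BCE2, also called DIN3, AT3G06850) of the branched-chain keto acid dehydrogenase. The others encode isovaleryl-CoA dehydrogenase (IVD, AT3G45300), the alpha and beta chains of methylcrotonyl-CoA carboxylase (MCCA, AT1G03090, and MCCB, AT4G34030), the electron-transfer flavoprotein:ubiquinone oxidoreductase ETFQO (AT2G43400) and D-2-hydroxyglutarate dehydrogenase (D2HGDH, AT4G36400).

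Messenger RNA of whole seedlings was sequenced in 12 libraries, 3 in each of 4 groups. The groups were the wild type Col-0 and the mutant ein2-5, which is in the Col-0 background, each with glucose (+Glc) and without it (−Glc). All seedlings were 4 days old and had grown in liquid medium that held no glucose. The treated groups received 15 mM glucose for 2 h, and the labels do not give what the others received in its place. EIN2 is the membrane protein that relays the ethylene signal, and ein2-5 is an ethylene-insensitive allele of it.

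Breakdown of leucine, isoleucine and valine begins when an aminotransferase removes the amino group and a mitochondrial dehydrogenase complex turns the keto acid into an acyl-CoA. In leucine breakdown, IVD then oxidises isovaleryl-CoA and methylcrotonyl-CoA carboxylase carries the product further, while the electron-transfer flavoprotein and ETFQO pass the electrons taken by IVD and D2HGDH to the respiratory chain. In plants this route is known for feeding respiration with amino acids when carbohydrate runs short, and the name DIN stands for dark-inducible.

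The aminotransferase pair is shown first because the genes are neighbours of which BCAT-2 fell with glucose in Col-0 and BCAT-1 did not pass. In the RefSeq annotation of TAIR10.1, BCAT-1 lies on chr1:3284073-3287292 and BCAT-2 on chr1:3288087-3290471, both on the plus strand, with 794 bases and 0 annotated genes between them. The copies of E1 alpha, AT1G21400 on chr1:7493213-7496741 (plus strand) and AT5G09300 on chromosome 5 (minus strand), are shown because AT1G21400 fell with glucose in Col-0 and AT5G09300 did not pass. Each line gives the 250 bases before the annotated gene start, 5′ to 3′ on the strand of the gene, from the TAIR10.1 genome, at chr1:3283823-3284072, chr1:3287837-3288086, chr1:7492963-7493212 and chr5:2886881-2887130 in that order. Capitals mark the motifs that were searched.
BCAT-1: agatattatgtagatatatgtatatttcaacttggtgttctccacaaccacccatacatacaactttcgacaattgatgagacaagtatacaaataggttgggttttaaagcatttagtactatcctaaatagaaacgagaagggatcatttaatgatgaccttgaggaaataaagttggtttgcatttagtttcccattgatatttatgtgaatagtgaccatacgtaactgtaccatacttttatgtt
BCAT-2: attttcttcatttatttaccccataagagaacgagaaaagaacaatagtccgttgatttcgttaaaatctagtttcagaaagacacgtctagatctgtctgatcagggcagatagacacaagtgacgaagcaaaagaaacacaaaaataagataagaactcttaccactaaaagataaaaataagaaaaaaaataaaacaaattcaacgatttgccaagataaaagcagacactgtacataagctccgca
E1 alpha AT1G21400: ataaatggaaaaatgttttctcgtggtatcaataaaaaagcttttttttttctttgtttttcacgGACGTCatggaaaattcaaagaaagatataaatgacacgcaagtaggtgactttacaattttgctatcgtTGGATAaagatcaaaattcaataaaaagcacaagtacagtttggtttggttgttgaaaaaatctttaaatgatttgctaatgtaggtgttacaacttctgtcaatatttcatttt
E1 alpha AT5G09300: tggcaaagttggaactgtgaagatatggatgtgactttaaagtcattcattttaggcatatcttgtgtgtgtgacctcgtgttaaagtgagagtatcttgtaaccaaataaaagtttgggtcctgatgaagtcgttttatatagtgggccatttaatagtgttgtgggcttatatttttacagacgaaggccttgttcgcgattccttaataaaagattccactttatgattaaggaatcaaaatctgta

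Each motif was searched on both strands, and no match overlaps another in the stretches shown. The letters CACGTG and also GACGTC are cores of sites bound by bZIP transcription factors. The letters TATCCA, which read TGGATA on the other strand, are known from sugar-repressed plant promoters. CACGTG was in 0 of the 10 promoters and in 6.49% of 27443 promoters of the annotation. GACGTC was in 1 of the 10, that of AT1G21400, against 2.27% of all promoters. ACTCAT, which reads ATGAGT on the other strand, was in 0 of the 10 against 12.3% of all promoters, and TATCCA was in 2 of the 10, those of AT1G21400 and D2HGDH, against 13.6% of all promoters. These are matches of letters in a short window and say nothing of whether a factor binds there.

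Each value below is in CPM, the reads of a gene per 1000000 reads counted in the genes of that library, as the authors deposited it. The libraries held 11470134 to 17461274 counted reads, so 3 reads, the least taken here as detectable, amount to 0.172 to 0.262 CPM. The members' values rested on 8 to 8304 reads a library, and such intervals and floors cover counting error only. EIN2 itself was at 105 to 137 CPM in the Col-0 libraries and at 43.4 to 60.2 CPM in the ein2-5 libraries, lower in the mutant without glucose (log2 fold change −1.27, limma adjusted p = 1.61e-06) and with it (−1.18, limma adjusted p = 3.44e-06), which does not test the lesion itself. Transcripts of 10 seed storage genes summed to 1.15 to 154 CPM in Col-0 and to 140 to 3352 CPM in ein2-5, and 3 libraries, below the seed-rich libraries, stood far above another of their group: Col-0 −Glc 1 (154 CPM, the others at 1.15 and 5.44) and ein2-5 +Glc 2 and 3 (2148 and 3352 CPM, the other at 140). The untreated ein2-5 libraries, at 758, 768 and 1310 CPM, stayed in every fit made without those 3. The summed level of 4 green tissue markers was 28745 to 37738 CPM in Col-0 and 18799 to 30140 CPM in ein2-5, and that of 5 root markers was 85.3 to 97.0 CPM in Col-0 and 106 to 169 CPM in ein2-5, with no marker of either list at 0. Of the seed storage genes, SESA1, SESA2, SESA4, CRB, OLEO1 and OLEO2 were at 0 in at least 1 Col-0 library and none was at 0 in ein2-5. In whole seedlings, fewer cells of a type and less RNA per cell cannot be told apart.

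**Figure D1:**
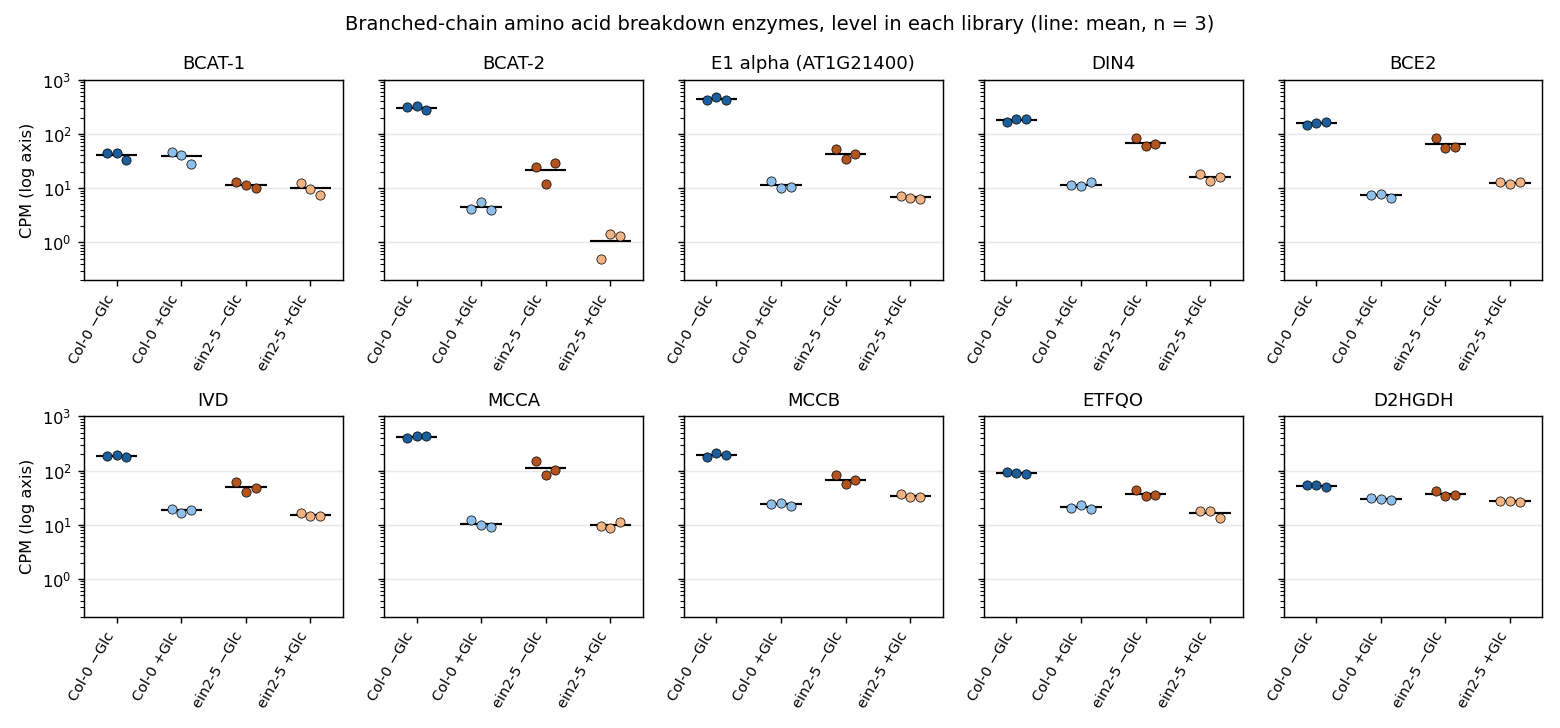
Level of each gene in each library in CPM on a log axis, with 1 point a library, the line at the mean of 3, and the 4 groups along the x axis. BCAT-2 spans the widest range, from 334 CPM in a Col-0 library without glucose to 0.491 CPM in an ein2-5 library with it, while BCAT-1 lies at 28.1 to 46.5 CPM in every Col-0 library.

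The first comparison asked what glucose changes in sugar-starved wild-type seedlings. The summed level of the 10 genes was 2081 ± 96.2 CPM (SD, n = 3) without glucose and 178 ± 14.6 CPM with it. With glucose, 9 of the 10 fell, beside 19.7% of all 19522 genes, and BCAT-1 did not pass (limma on log2(CPM + 1), Benjamini-Hochberg adjusted p below 0.05). The median log2 fold change of the 10 was −3.57, against 0.19 for all genes. With TMM scaling these medians were −3.78 and 0.01, the same 10 genes had 9 lower and 0 higher, and the split over all genes moved from 7925 higher and 3850 lower to 5969 higher and 5842 lower. Of the 10, 8 fell by at least 2 on the log2 scale, beside 1.72% of all genes, and 6 by at least 3, beside 0.666%. The libraries of the same 9 genes did not overlap between the groups, beside 24.1% of all genes that were lower without overlap.

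The aminotransferases catalyse the first and reversible step. BCAT-2 was at 309, 334 and 271 CPM in the Col-0 libraries without glucose and at 4.11, 5.50 and 3.88 CPM in those with it. Each treated library held less than any untreated one, and the log2 fold change was −5.80 ± 0.263 (SE, limma adjusted p = 1.94e-09), the sixth-lowest of all genes. BCAT-1 was at 43.8, 44.8 and 33.4 CPM without glucose and at 46.5, 41.5 and 28.1 CPM with it. Its groups overlapped, and its log2 fold change of −0.09 ± 0.196 did not pass (limma adjusted p = 0.722).

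The dehydrogenase complex commits the keto acid to breakdown, with E1 removing the carboxyl group and E2 passing the acyl group to coenzyme A. E1 alpha (AT1G21400) was at 427, 476 and 431 CPM without glucose and at 13.5, 10.1 and 10.7 CPM with it, a log2 fold change of −5.17 ± 0.136 (limma adjusted p = 3.04e-11). DIN4, the E1 beta chain, was at 168, 190.1 and 186 CPM without glucose and at 11.2, 10.7 and 12.8 CPM with it, a log2 fold change of −3.86 ± 0.131 (limma adjusted p = 1.96e-10). BCE2, the E2 core, was at 147, 159 and 169 CPM without glucose and at 7.56, 7.89 and 6.68 CPM with it, a log2 fold change of −4.25 ± 0.135 (limma adjusted p = 1.26e-10). All 3 subunit genes were thus low in every treated library and high in every untreated one, with no overlap.

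Among the enzymes after the complex, IVD removes electrons from isovaleryl-CoA. It was at 184, 196 and 181 CPM without glucose and at 19.5, 16.9 and 18.9 CPM with it, a log2 fold change of −3.28 ± 0.125 (limma adjusted p = 4.99e-10). Methylcrotonyl-CoA carboxylase holds its biotin on the alpha chain and transfers the carboxyl group on the beta chain. MCCA, the alpha chain, was at 402, 435 and 441 CPM without glucose and at 12.3, 10.1 and 9.02 CPM with it, a log2 fold change of −5.23 ± 0.169 (limma adjusted p = 1.26e-10). MCCB, the beta chain, was at 178, 212 and 198 CPM without glucose and at 24.1, 25.5 and 22.2 CPM with it, a log2 fold change of −2.98 ± 0.126 (limma adjusted p = 1.05e-09). All 3 were lower in each treated library than in any untreated one, with no overlap.

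The genes of electron transfer changed least among those that passed. ETFQO was at 95.3, 90.3 and 84.9 CPM without glucose and at 20.2, 23.3 and 19.9 CPM with it, a log2 fold change of −2.04 ± 0.123 (limma adjusted p = 1.92e-08). D2HGDH, which oxidises D-2-hydroxyglutarate, was at 55.0, 53.3 and 48.8 CPM without glucose and at 30.7, 30.4 and 29.1 CPM with it, a log2 fold change of −0.78 ± 0.0875 (limma adjusted p = 4.95e-06). Neither gene's groups overlapped, and in treated libraries D2HGDH kept 57.4% of its untreated mean, ETFQO 23.5%, MCCB 12.2%, and BCAT-2 1.48%. Nothing in the labels says that the libraries of each group came from cultures grown apart, so these p-values measure the spread between libraries, which may be technical. Glucose lowered 2 of the 4 green tissue markers in each genotype, beside 19.7% of all genes in Col-0 and 16.4% in ein2-5. It raised 2 of the 5 root markers in each, beside 40.6% and 26.5%. With TMM scaling 1 of the 5 root markers was higher and 2 lower in Col-0, beside 30.6% and 29.9% of all genes. None of the 10 seed storage genes passed for glucose, but edgeR on recovered reads called 2 of them lower in Col-0. The part of these markers in the glucose responses was not tested.

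The ein2-5 mutant showed whether the same genes respond to glucose when EIN2 is impaired. In ein2-5 the sum of the 10 genes was 514 ± 111 CPM (SD, n = 3) without glucose and 149 ± 10.3 CPM with it. Of the 10, 9 fell, beside 16.4% of all genes, and BCAT-1 did not pass. The libraries of these 9 did not overlap between the groups, beside 18.0% of all genes that were lower without overlap. The median log2 fold change was −1.83, against 0.09 for all genes.

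BCAT-2 was at 24.6, 12.0 and 28.5 CPM in ein2-5 without glucose and at 0.491, 1.44 and 1.31 CPM with it. Every treated library was below every untreated one, with a log2 fold change of −3.40 ± 0.263 (limma adjusted p = 1.24e-06). At such low levels the pseudocount weighs on the value. It was −2.08 with a pseudocount of 5 and −4.43 with edgeR on recovered reads. BCAT-1 was at 13.0, 11.5 and 10.3 CPM without glucose and at 12.6, 9.53 and 7.50 CPM with it. These groups overlapped and the change of −0.23 did not pass (limma adjusted p = 0.365).

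In the complex, E1 alpha was at 52.2, 34.3 and 42.3 CPM in ein2-5 without glucose and at 7.24, 6.66 and 6.36 CPM with it, a log2 fold change of −2.48 (limma adjusted p = 8.71e-08). DIN4 was at 83.9, 59.0 and 64.9 CPM without glucose and at 18.0, 13.5 and 16.2 CPM with it, a change of −2.05 (limma adjusted p = 2.66e-07). BCE2 was at 83.3, 54.2 and 57.4 CPM without glucose and at 13.0, 11.7 and 12.7 CPM with it, a change of −2.27 (limma adjusted p = 1.65e-07). For all 3 the untreated libraries were higher throughout, and the first untreated library was the highest of its group.

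IVD was at 61.1, 40.5 and 46.8 CPM in ein2-5 without glucose and at 16.7, 14.6 and 14.4 CPM with it, a log2 fold change of −1.62 (limma adjusted p = 1.20e-06). MCCA was at 148, 83.6 and 102 CPM without glucose and at 9.51, 8.85 and 11.1 CPM with it, a change of −3.34 (limma adjusted p = 4.98e-08). MCCB was at 83.9, 55.8 and 65.9 CPM without glucose and at 36.8, 33.1 and 32.1 CPM with it, a change of −0.97 (limma adjusted p = 7.01e-05). The chains of the carboxylase thus fell by different amounts in the mutant too, and none of the 3 genes had overlapping groups. ETFQO was at 43.3, 33.9 and 35.2 CPM without glucose and at 18.2, 17.6 and 13.4 CPM with it, a change of −1.15 (limma adjusted p = 1.57e-05). D2HGDH was at 42.0, 34.0 and 35.5 CPM without glucose and at 28.0, 27.2 and 26.4 CPM with it, a change of −0.43 ± 0.0875 (limma adjusted p = 0.00167). Without the seed-rich libraries, which leaves 1 treated ein2-5 library that is assumed to vary like the others, the change of D2HGDH was −0.39 and did not pass (limma adjusted p = 0.0584).

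**Figure D2:**
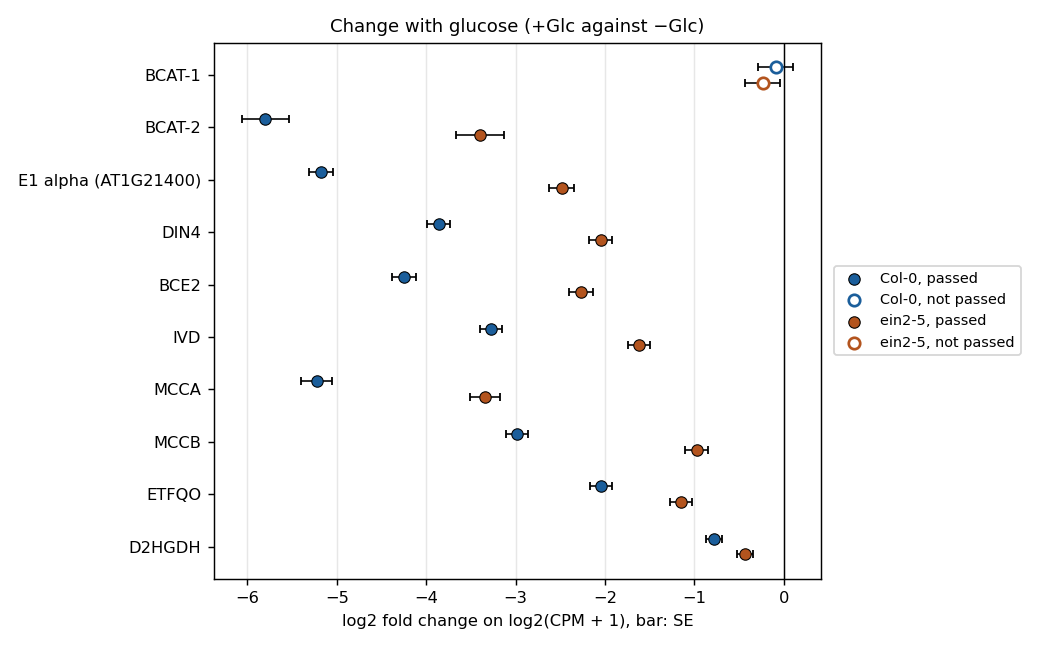
Log2 fold change with glucose on the log2(CPM + 1) scale for each gene, in Col-0 and in ein2-5, with bars for the SE and open points where the adjusted p was 0.05 or above. The 9 genes that fell did so in both genotypes, from −5.80 to −0.78 in Col-0 and from −3.40 to −0.43 in ein2-5, and BCAT-1 sits near 0 in both.

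Whether the response itself differed between the genotypes was tested as the change in ein2-5 minus the change in Col-0, in which a positive value means a smaller fall in the mutant. It was positive and passed for 8 of the 10 genes, beside 5.49% of all genes, and it was negative and passed for 0, beside 13.3%. The median was 1.85, against −0.11 for all genes. E1 alpha had a difference of 2.69 ± 0.193 (limma adjusted p = 2.1e-05) and BCAT-2 of 2.41 ± 0.372 (limma adjusted p = 9.6e-04). The pseudocount weighs on the BCAT-2 value, which ran from 1.83 to 2.95 over the settings, against 2.54 to 2.85 for E1 alpha. With edgeR on recovered reads BCAT-2 changed by −6.30 in Col-0 and −4.43 in ein2-5, so its place among the 10 genes is not firm. MCCB, BCE2, MCCA, DIN4 and IVD lay between 1.66 and 2.01, and ETFQO was at 0.90 ± 0.173 (limma adjusted p = 0.0036).

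The genes that did not pass were BCAT-1, at −0.15 ± 0.277 (limma adjusted p = 0.760), and D2HGDH, at 0.35 ± 0.124 (limma adjusted p = 0.0670). D2HGDH passed under 6 alternatives, among them TMM scaling (0.50, limma adjusted p = 0.00678) and leaving out ein2-5 −Glc 1 (0.44, limma adjusted p = 0.0176). Scaling also moved the split over all genes, from 1072 higher and 2606 lower as deposited to 1873 higher and 1794 lower with TMM, and with TMM 9 of the 10 genes were higher and 0 lower. As a share of the untreated mean, MCCB kept 49.6% in treated ein2-5 and 12.2% in treated Col-0, E1 alpha kept 15.7% and 2.57%, and MCCA 8.83% and 2.46%.

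The genotypes were then compared at each glucose condition, with the same 12 libraries that gave the responses above. Without glucose, all 10 genes were lower in ein2-5 than in Col-0, beside 16.0% of all genes, and none of the 10 had overlapping groups, beside 20.1% of all genes that were lower without overlap. The median log2 fold change was −1.62, against 0.15 for all genes. With TMM scaling 10 of the 10 were again lower, while the split over all genes moved from 6887 higher and 3121 lower to 5135 higher and 5330 lower. The values by library are those given above for the untreated groups. BCAT-2 differed most, at 304 ± 31.7 CPM (SD, n = 3) in Col-0 and 21.7 ± 8.62 CPM in ein2-5, a log2 fold change of −3.83 (limma adjusted p = 3.81e-07). E1 alpha followed, at 444 ± 27.1 CPM and 42.9 ± 8.95 CPM, a change of −3.36 (limma adjusted p = 9.82e-09).

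The other complex subunits differed less than E1 alpha, with DIN4 at −1.39 (limma adjusted p = 3.92e-06) and BCE2 at −1.3 (limma adjusted p = 7.81e-06). MCCA at −1.97, IVD at −1.92, MCCB at −1.52 and ETFQO at −1.25 also passed (limma adjusted p between 2.72e-07 and 4.95e-06). D2HGDH had the smallest difference, at −0.49 (limma adjusted p = 0.000516). BCAT-1, which did not pass for glucose in either genotype, was at 40.7 ± 6.32 CPM (SD, n = 3) in Col-0 and 11.6 ± 1.35 CPM in ein2-5, a change of −1.72 ± 0.196 (limma adjusted p = 1.54e-05). Seed storage transcripts were higher in ein2-5 for 10 of 10 genes in both glucose conditions. The share of all genes higher was 35.3% without glucose and 26.1% with it. Without glucose, 3 of 4 green tissue markers were lower, beside 16.0% of all genes, and 3 of 5 root markers higher, beside 35.3%. With TMM scaling 1 of the 5 root markers was higher without glucose, beside 26.3% of all genes. With glucose, 2 of the 4 green tissue markers were lower in ein2-5, beside 20.9% of all genes, and 3 of the 5 root markers higher, beside 26.1%. With TMM scaling these were 1 of 4 and 3 of 5, beside 24.0% and 25.2%. Their part in the genotype differences was not tested.

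With glucose, 3 of the 10 genes were higher in ein2-5, beside 26.1% of all genes, 4 were lower, beside 20.9%, and 3 did not pass. The median was −0.20, against 0.02 for all genes. BCAT-1 remained lower in the mutant, at 38.7 ± 9.52 CPM in Col-0 and 9.87 ± 2.55 CPM in ein2-5 (SD, n = 3), a change of −1.87 (limma adjusted p = 1.1e-05). BCAT-2 was at 4.49 ± 0.879 CPM and 1.08 ± 0.513 CPM, a change of −1.42 (limma adjusted p = 0.000781). That change was −0.64 with a pseudocount of 5 and −2.13 with edgeR on recovered reads. E1 alpha was at 11.4 ± 1.80 CPM and 6.75 ± 0.444 CPM, a change of −0.67 (limma adjusted p = 0.00153).

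BCE2 was higher in treated ein2-5, at 7.38 ± 0.624 CPM in Col-0 and 12.5 ± 0.671 CPM in ein2-5 (SD, n = 3), a change of 0.69 (limma adjusted p = 0.00117). MCCB was at 23.9 ± 1.65 CPM and 34.0 ± 2.48 CPM, a change of 0.49 (limma adjusted p = 0.00657). DIN4 was at 11.6 ± 1.07 CPM and 15.9 ± 2.30 CPM, a change of 0.42 (limma adjusted p = 0.0181). The call of DIN4 was lost without Col-0 +Glc 1 or 2 or ein2-5 +Glc 1 or 3 (limma adjusted p between 0.0507 and 0.0675). ETFQO at −0.35 (limma adjusted p = 0.0301) lost its call without the seed-rich libraries (−0.20, limma adjusted p = 0.381), without Col-0 +Glc 2 (−0.29, limma adjusted p = 0.118) or ein2-5 +Glc 3 (−0.22, limma adjusted p = 0.138), or with only the groups compared in the fit (limma adjusted p = 0.0634). E1 alpha lost its call without the seed-rich libraries (−0.58, limma adjusted p = 0.0673). IVD at −0.26, MCCA at −0.08 and D2HGDH at −0.14 did not pass (limma adjusted p of 0.106, 0.721 and 0.211), and IVD passed without ein2-5 −Glc 1 (limma adjusted p = 0.0332).

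**Figure D3:**
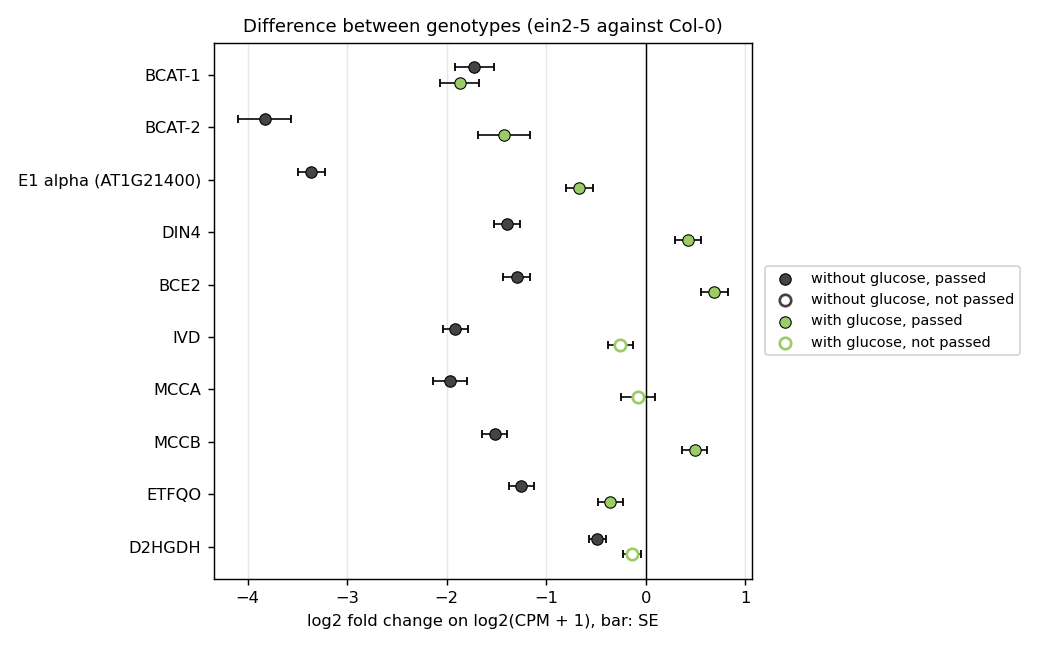
Log2 fold change of ein2-5 against Col-0 on the log2(CPM + 1) scale for each gene, without and with glucose, with bars for the SE and open points where the adjusted p was 0.05 or above. Without glucose the 10 genes lie between −3.83 and −0.49, and with it they lie between −1.87 and 0.69.

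Levels between genes were compared per kilobase of annotated exon. In Col-0 without glucose, BCAT-2 was at 174 ± 18.1 CPM per kb (SD, n = 3), MCCA at 155 ± 7.62 and E1 alpha at 148 ± 9.01, and the libraries of each overlapped those of the next. DIN4 at 133 ± 8.57 and IVD at 114 ± 4.75 CPM per kb came below them with no overlap between neighbours, and MCCB at 89.7 ± 7.70 overlapped with BCE2 at 80.8 ± 5.63. ETFQO at 38.3 ± 2.21, D2HGDH at 23.6 ± 1.44 and BCAT-1 at 15.6 ± 2.42 CPM per kb closed the order without overlap. With glucose the order in Col-0 differed, with BCAT-1 at 14.8 and D2HGDH at 13.6 CPM per kb at its top, E1 alpha at 3.79 and BCE2 at 3.76 near its end, and BCAT-2 at 2.57 last. The annotated exons of AT1G21400 are long beside its coding sequence of 1575 bases, and per kilobase of coding sequence E1 alpha was at 282 ± 17.2 and BCAT-2 at 261 ± 27.2 CPM in untreated Col-0, with overlapping libraries.

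Shares between copies, per kilobase of exon, changed with glucose. BCAT-2 made up 91.8% ± 0.520 (SD, n = 3) of the pair BCAT-1 and BCAT-2 in untreated Col-0 and 15.1% ± 2.98 in treated Col-0. In ein2-5 its share was 71.8% ± 10.05 without glucose and 14.8% ± 8.16 with it. The share thus fell without overlap in both genotypes, while the treated groups of the genotypes overlapped.

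E1 alpha has a second gene, AT5G09300, whose coding sequence is 69.5% identical to that of AT1G21400. AT5G09300 was at 3.45 CPM in untreated and 4.59 CPM in treated Col-0 (log2 fold change 0.34, limma adjusted p = 0.127), and it rose in ein2-5, from 5.16 to 8.15 CPM (0.58, limma adjusted p = 0.0209). AT1G21400 held 98.8% ± 0.182 of the pair in untreated Col-0 and 61.1% ± 5.57 in treated Col-0. In ein2-5 it held 83.9% ± 4.57 without glucose and 35.2% ± 6.64 with it, or 43.2% ± 7.06 with glucose when counted per kilobase of coding sequence. E1 beta also has a second gene, BCDH BETA1 (AT1G55510), 85.7% identical in coding sequence to DIN4, with no shared exon stretch longer than 28 bases. DIN4 held 79.6% ± 1.37 and 78.0% ± 2.13 of that pair in untreated Col-0 and ein2-5, which overlapped, and 51.6% ± 4.72 and 59.4% ± 1.63 in the treated groups.

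Ratios between partners of one enzyme were taken in the same way. MCCA stood to MCCB as 1.74 ± 0.0852 in untreated and 0.349 ± 0.0510 in treated Col-0, and as 1.28 ± 0.114 and 0.231 ± 0.0381 in ein2-5 (per kb of exon, SD, n = 3). E1 alpha stood to DIN4 as 1.11 ± 0.0532 in untreated Col-0, 0.449 ± 0.0850 in treated Col-0, 0.280 ± 0.0159 in untreated ein2-5 and 0.194 ± 0.0255 in treated ein2-5. Per kilobase of coding sequence that ratio was 1.68, 0.679, 0.423 and 0.294 in the same order of groups. Summed over copies, again per kb of exon, E1 alpha stood to E1 beta as 0.893 in untreated and 0.374 in treated Col-0, and as 0.261 and 0.336 in ein2-5, where the groups overlapped (exact permutation p = 0.3). BCE2 to DIN4 moved over a narrower range, from 0.448 to 0.647. With 3 libraries against 3, an exact two-sided permutation test cannot go below p = 0.10. Of 28 comparisons of shares and ratios, the 22 without overlap reached that value, which was 0.127 after Benjamini-Hochberg adjustment over the 28.

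**Figure D4:**
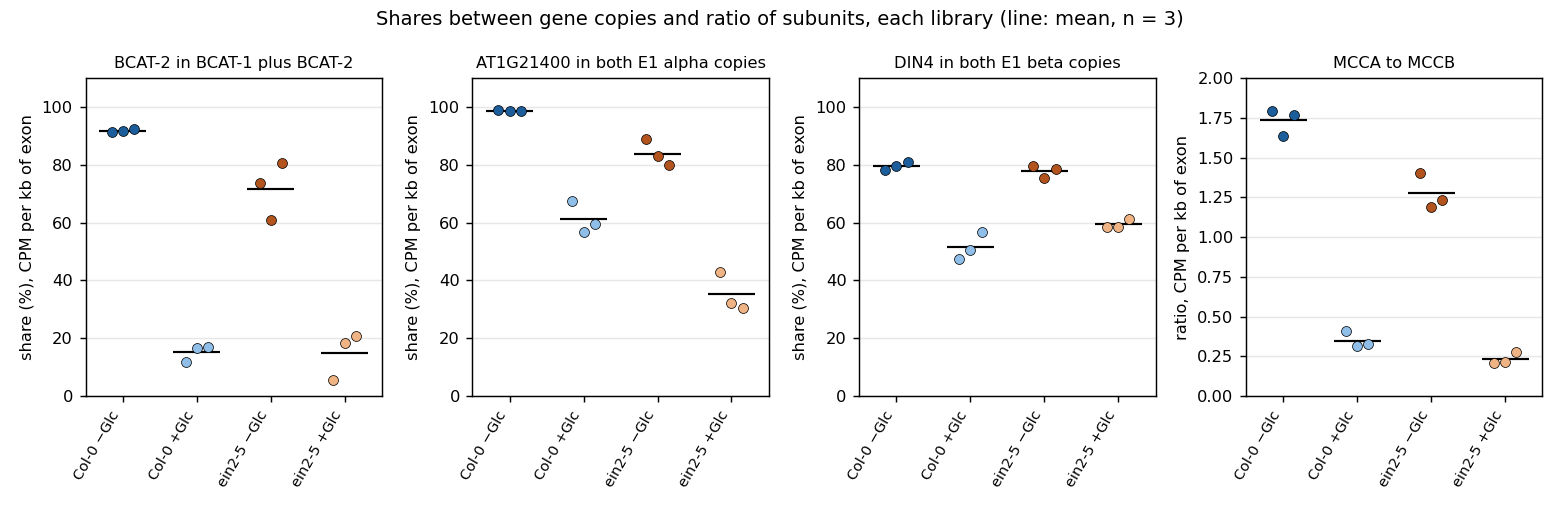
Share of BCAT-2, AT1G21400 and DIN4 in the summed level of each pair of copies (%), and the ratio of MCCA to MCCB, from CPM per kb of exon, with 1 point a library and the line at the mean of 3. Treated libraries lie below untreated ones of the same genotype in all 4 panels, from 98.8% to 61.1% in Col-0 for AT1G21400.

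The reads of 6 of the 10 genes could touch an exon of a gene on the other strand, over at most 10.9% of exon bases, and the strand setting of the counting is not given in the sources used here. AT1G03100, opposite MCCA, was at 1.33 CPM in untreated and 2.38 CPM in treated Col-0, and AT1G10090, opposite BCAT-2, was at 54.0 and 54.8 CPM. AT2G43410, opposite 46 bases of ETFQO, fell in Col-0 from 67.3 to 38.3 CPM. Its part in the ETFQO values was not tested.

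The remaining enzymes of the pathway were counted in the same way. Of 12 other breakdown genes, all in the table, 5 fell (19.7% of all genes did) and 2 rose (40.6% of all genes), with a median of −0.19 in Col-0. BCDH BETA1 fell by 2.01 on the log2 scale, from 51.1 ± 2.67 to 12.0 ± 1.51 CPM (SD, n = 3, limma adjusted p = 1.68e-08). ALDH6B2, the methylmalonate-semialdehyde dehydrogenase of valine breakdown, fell by 2.01, from 395 ± 17.6 to 97.4 ± 3.14 CPM (limma adjusted p = 2.9e-08), and HML1, the hydroxymethylglutaryl-CoA lyase that ends leucine breakdown, fell by 1.25 (limma adjusted p = 1.87e-07). CHY4, a hydroxyacyl-CoA hydrolase family member, rose by 1.3, from 9.30 to 24.1 CPM (limma adjusted p = 5.63e-06). ETFB, the beta chain of the electron-transfer flavoprotein, fell by 0.79 (limma adjusted p = 0.000798). The lipoamide dehydrogenase gene mtLPD2 rose by 0.38 (limma adjusted p = 0.00298) but did not pass with TMM scaling. With TMM scaling 8 of the 12 fell and 1 rose, beside 29.9% and 30.6% of all genes.

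In ein2-5, 4 of the 12 fell and 3 rose, beside 16.4% and 26.5% of all genes, with a median of −0.12. Their response differed between the genotypes for 2 of 12, beside 5.49% of all genes that were higher, BCDH BETA1 at 1.22 (limma adjusted p = 0.0005) and HML1 at 0.63 (limma adjusted p = 0.00731), both with a smaller fall in ein2-5. With TMM scaling ETFB and ALDH6B2 passed too, which makes 4 of 12, beside 9.59% of all genes. Without glucose, 4 were lower and 3 higher in ein2-5 than in Col-0, beside 16.0% and 35.3% of all genes, and with glucose 2 were lower and 4 higher, beside 20.9% and 26.1%.

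Of the aminotransferase genes outside the breakdown pair, 3 of 3 measured rose in Col-0, beside 40.6% of all genes. BCAT3, a chloroplast enzyme of synthesis, rose from 67.2 to 117 CPM (log2 fold change 0.80, limma adjusted p = 2.88e-06), BCAT5 rose by 0.70 (limma adjusted p = 0.000127) and BCAT6 rose from 1.76 to 11.3 CPM (2.16, limma adjusted p = 2.35e-07). In ein2-5 only BCAT6 passed, at 1.08 (limma adjusted p = 0.00034), and the difference of responses was negative and passed for all 3, beside 13.3% of all genes, although BCAT5 lost that call with TMM scaling (limma adjusted p = 0.0574). BCAT4 was looked for but was not among the genes of the expression table.

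Of 13 genes of branched-chain amino acid synthesis, 9 rose, 1 fell and 3 did not pass in Col-0, where 40.6% of all genes rose and 19.7% fell. IMD1, an isopropylmalate dehydrogenase, rose from 0.343 to 6.32 CPM (2.45, limma adjusted p = 6.87e-07), and DHAD, the dihydroxyacid dehydratase, rose by 1.06 (limma adjusted p = 8.98e-08). In Col-0 −Glc 3 IMD1 was at 0.115 CPM, below the floor of 3 reads, and with edgeR on recovered reads its change was 4.02. IMD3, another isopropylmalate dehydrogenase, rose by 0.88, another regulatory subunit gene of acetohydroxyacid synthase by 0.65, and OMR1, the threonine deaminase of isoleucine synthesis, by 0.55 (limma adjusted p from 3.53e-07 to 2.67e-05). The gene that fell, AT2G31810, also encodes a regulatory subunit of acetohydroxyacid synthase and was at 293 ± 17.0 CPM without and 97.7 ± 5.69 CPM with glucose (SD, n = 3, log2 fold change −1.57, limma adjusted p = 7.55e-08). It fell in ein2-5 as well, by 1.16 on the log2 scale (limma adjusted p = 7.12e-06). In ein2-5, 4 of the 13 rose and 2 fell, shares near those of all genes (26.5% and 16.4%). With TMM scaling 7 rose and 2 fell in Col-0, beside 30.6% and 29.9% of all genes.

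Breakdown genes of lysine and tyrosine were set beside them. In Col-0, 4 of 5 fell and 1 rose, where 19.7% of all genes fell and 40.6% rose. HPD, the hydroxyphenylpyruvate dioxygenase, changed by −3.47 (limma adjusted p = 3.66e-09), and LKR/SDH, the first enzyme of lysine breakdown, by −2.57 (limma adjusted p = 3.33e-09). HGO, the homogentisate dioxygenase, changed by −3.06 (limma adjusted p = 2.92e-10) and TAT7, a tyrosine aminotransferase, by −1.50 (limma adjusted p = 2.53e-06). The tyrosine breakdown gene FAH rose by 0.28 (limma adjusted p = 0.0258) but did not pass with TMM scaling. In ein2-5 also 4 fell and 1 rose, beside 16.4% and 26.5% of all genes. The fall was smaller there for 3 of the 5, beside 5.49% of all genes with a higher difference, HPD by 1.42, HGO by 1.75 and LKR/SDH by 0.91 on the log2 scale. With TMM scaling TAT7 passed as well (0.75, limma adjusted p = 0.0205).

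**Figure D5:**
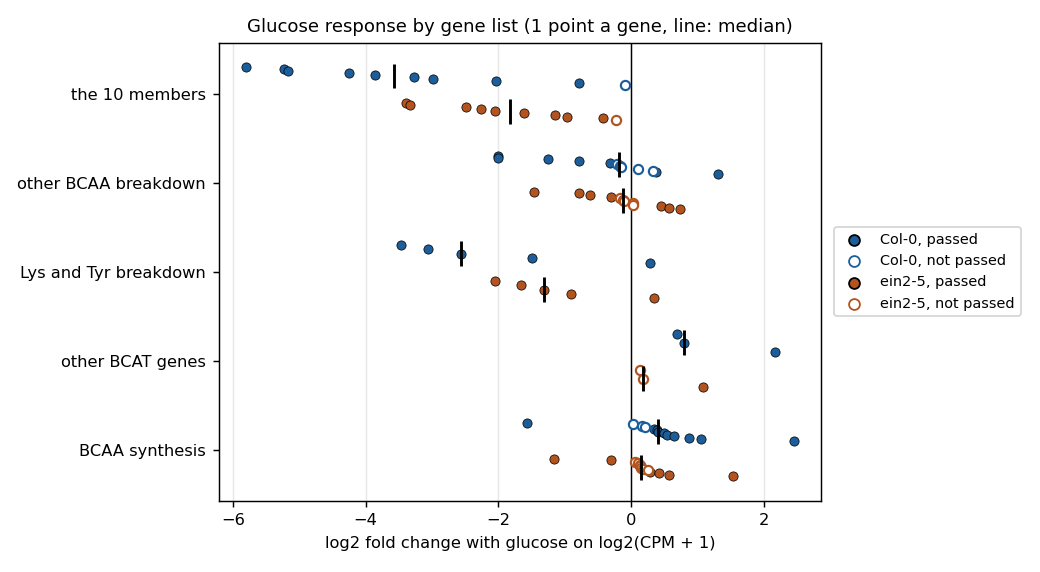
Log2 fold change with glucose on the log2(CPM + 1) scale for each gene of 5 lists, in Col-0 and in ein2-5, with a line at each list's median and open points where the adjusted p was 0.05 or above. The medians in Col-0 lie at −3.57 for the 10 genes and at −0.19 for the other breakdown genes, and those of the aminotransferase and synthesis lists lie above 0.

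The average profile of the 10 genes over the 12 libraries, on centred log2(CPM + 1), was matched most closely by IVD, with a root mean square difference of 0.0936 against a median of 1.57 over all genes. IVD is itself part of that average, so the measure favours the 10 genes. BCAT-1 at 1.34, BCAT-2 at 1.32 and D2HGDH at 1.1 were farthest among the 10. Outside the lists, the closest genes were AT1G56220, of the dormancy/auxin associated family, at 0.250, MO1 (AT4G15760), a monooxygenase, at 0.255, AT5G62240 at 0.260, the beta carbonic anhydrase gene BCA6 (AT1G58180) at 0.260 and the DNA photolyase family gene UVR3 (AT3G15620) at 0.289. MO1 was at 208 ± 14.8 CPM in untreated Col-0, 18.6 ± 6.28 CPM in treated Col-0, 58.2 ± 9.25 CPM in untreated ein2-5 and 15.0 ± 0.909 CPM in treated ein2-5 (SD, n = 3). DIN4, the next of the 10 after IVD, was at 0.3855, so these outside genes were closer than all of the 10 except IVD. This is a likeness over 12 libraries only.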

How the data were processed

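Messenger RNA of 12 seedling libraries in 4 groups of 3 was analysed from the gene table that the authors deposited in CPM. Per the submitters' processing notes, TopHat, HTSeq and the build TAIR10 were used; versions and the strand setting are not given in the sources used here. Groups came from the sample titles, since another label names glucose for every sample. Each column sums to 1000000, and 100% of values came out as whole reads within 0.01 reads once depth was recovered.

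The main test was limma 3.58.1 (R 4.3.3) with trend on log2(CPM + 1), with the means of 4 groups (8 residual degrees of freedom), unfiltered, Benjamini-Hochberg adjusted over 19522 genes at 0.05, and it was tested on simulated data. Fold changes on this scale understate the change of low genes. Alternatives were pseudocounts of 0.1 and 5, TMM and size factor scaling, a filter of 1 CPM in 3 libraries, only the groups compared, a replicate block, edgeR 4.0.16 and DESeq2 1.42.0 on recovered reads, and libraries left out. On the recovered reads edgeR called 6006 genes higher and 5843 lower for glucose in Col-0. Exon and coding lengths, promoters and coding identity (Biopython 1.88) came from RefSeq TAIR10.1, joined by locus code. Protein identity was planned but coding sequence was compared instead.

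The genes, lists and tests were chosen with earlier results of these data known. Values are given for all 10 genes, EIN2, up to 6 genes a list with the largest passing change in Col-0, the second copies, and the 5 outside genes of closest profile. Replicate pairs of a group differed by more than sampling noise (chi-square per gene of 6.59 or more). In the glucose contrast of ein2-5, all 3 correlations of same-numbered libraries exceeded 0.1 (0.125 to 0.564), but ein2-5 −Glc 3 and +Glc 2 also reached 0.292. In the other contrasts not all same-numbered correlations exceeded 0.1, so the block stayed an alternative.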

Additional observations from a re-analysis of the deposited data

Results flagged for a closer look

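The change with glucose differed between Col-0 and ein2-5, by the test of the difference itself, for 8 of the 10 genes. The difference (change in ein2-5 minus change in Col-0, log2) was 2.69 for E1 alpha, 2.41 for BCAT-2, 2.01 for MCCB, 1.99 for BCE2, 1.89 for MCCA, 1.81 for DIN4, 1.66 for IVD and 0.90 for ETFQO (limma, adjusted p from 2.1e-05 to 0.0036). Each was positive, so that the fall was smaller in the mutant, where the level without glucose was lower. The value of BCAT-2, low in treated ein2-5, ran from 1.83 to 2.95 over the settings. BCAT-1, the neighbour of BCAT-2 on chromosome 1, was lower in ein2-5 in both glucose conditions and had no difference that passed.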

How the results depend on the processing

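Of 1090 recomputed values of the 10 genes, 1065 kept direction and call, 7 gained a call, 10 lost one and 8 changed sign. The sign changes were all of values near 0. BCAT-1 in the glucose response of Col-0 was at −0.23 to 0.12 with 1 library left out (positive without Col-0 +Glc 3), and in that of ein2-5 at 0.12 without the 3 seed-rich libraries. Its difference of responses was at 0.00597 with TMM, 0.00295 with DESeq2's size factors, 0.0023 with edgeR, 0.14 without those 3 libraries and −0.35 to 0.019 with 1 library left out (positive without ein2-5 +Glc 3). MCCA between the genotypes with glucose was at −0.17 to 0.033 with 1 library left out (positive without Col-0 +Glc 1). Leaving out 1 library at a time gave 9, 9 and 10 genes called for glucose in Col-0, glucose in ein2-5 and genotype without glucose, 5 to 8 for genotype with glucose and 8 to 9 for the difference. Without the 3 seed-rich libraries, which were chosen from measured values, fewer genes of the whole table were called: 4412 against 8372 for glucose in ein2-5, 4234 against 9180 for genotype with glucose and 1814 against 3678 for the difference; fewer libraries entered, and the cause was not tested further. Leaving them out also took ETFQO between the genotypes with glucose from −0.35 to −0.20 and ended its call. With the replicate block, the difference of D2HGDH stayed at 0.35 and passed (limma adjusted p = 0.0426); the pairing changed no other call of the 10 genes. Depth limits BCAT-2 in treated ein2-5, whose lowest library held 8 reads.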
